A study of Mus musculus with 17 samples.

Results

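The core spliceosome genes are 47 autosomal genes of the mouse that encode proteins of the U1 and U2 particles, the Sm ring, the tri-snRNP, the PRP19 complex and the factors of the catalytic steps. They were taken as a named list and set among 20807 autosomal protein-coding genes. Each gene was scored for a row of an H3.3 peak list within 1 kb of any of its annotated transcript starts in GENCODE M21, on the mm10 build. Of the 47 members, 27 (57.4%) had such a row in Arid1a cKO, against 29.5% of all autosomal protein-coding genes. In Arid1a WT, 0 of the members and 0 of the 20807 genes had one.

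H3.3 was profiled by CUT&RUN, in which an antibody tethers a nuclease to chromatin and the DNA it releases is sequenced. The cells were pachytene spermatocytes, germ cells in the long prophase of meiosis, purified on Sta-Put gradients from pooled adult testes and kept frozen before use. Arid1a cKO males were Arid1a fl/fl with a Stra8-Cre Tg/0 transgene, which acts from spermatogonia onward, and Arid1a WT males carried floxed alleles (Arid1a fl/fl or Arid1a fl/+). The floxed line is kept on a CD1 background. Stra8-Cre is not fully efficient, so the Arid1a cKO fraction also holds cells that kept ARID1A. The H3.3 data comprised 2 Arid1a WT libraries and 3 Arid1a cKO libraries, given as 1 combined peak list per genotype. There is therefore no replicate error on any value below and no test between genotypes, and the depth behind each row is unknown. A peak list holds no expression, so the labelled cell type could not be checked against marker genes. The other 12 libraries of the series, made with ARID1A antibodies, were not analysed here.

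The spliceosome removes introns from pre-mRNA. U1 pairs with the 5′ splice site and U2 with the branch point, the tri-snRNP then joins, and the PRP19 complex and a series of RNA helicases reshape the assembly through both catalytic steps. H3.3 is a histone variant that is deposited without DNA replication, mostly at active promoters, enhancers and gene bodies, and in pachytene spermatocytes it also accumulates on the silenced sex chromosomes.

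A row gives a start, an end, a fold enrichment over an IgG control and the −log10 of the q-value, as the peak caller wrote them. Most peak names appear on more than 1 row with the same fold, so a row marks a stretch where peaks of different libraries overlapped, and its fold and −log10 q belong to the named peak. No peak name carried more than 1 fold, so these values appear to be those of the peak in 1 library, and which of the 3 cannot be told. The sequences below are the middle of the highest-fold row in each of the 6 classes, read 5′ to 3′ on the strand of the member. They are shown because they are the stretches that the combined Arid1a cKO list places at these genes. Capitals mark each CpG, the base pair step that is dense in promoters of widely expressed genes.
Snrpa, chr7:27195867-27196166, minus strand: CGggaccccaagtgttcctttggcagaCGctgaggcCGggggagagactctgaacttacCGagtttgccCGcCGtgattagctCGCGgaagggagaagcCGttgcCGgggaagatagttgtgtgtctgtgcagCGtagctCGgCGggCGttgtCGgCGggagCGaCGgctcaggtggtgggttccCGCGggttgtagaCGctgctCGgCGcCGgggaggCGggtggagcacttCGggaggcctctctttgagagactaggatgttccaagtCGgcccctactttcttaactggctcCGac
Snrpd3, chr10:75517092-75517391, plus strand: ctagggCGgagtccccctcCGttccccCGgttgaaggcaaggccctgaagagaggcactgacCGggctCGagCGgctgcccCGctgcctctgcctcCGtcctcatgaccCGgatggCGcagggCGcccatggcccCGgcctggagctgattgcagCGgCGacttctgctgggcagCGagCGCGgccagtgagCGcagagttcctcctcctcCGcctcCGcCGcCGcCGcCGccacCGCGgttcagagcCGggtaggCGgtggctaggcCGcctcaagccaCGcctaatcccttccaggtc
Snrpa1, chr7:66060547-66060846, plus strand: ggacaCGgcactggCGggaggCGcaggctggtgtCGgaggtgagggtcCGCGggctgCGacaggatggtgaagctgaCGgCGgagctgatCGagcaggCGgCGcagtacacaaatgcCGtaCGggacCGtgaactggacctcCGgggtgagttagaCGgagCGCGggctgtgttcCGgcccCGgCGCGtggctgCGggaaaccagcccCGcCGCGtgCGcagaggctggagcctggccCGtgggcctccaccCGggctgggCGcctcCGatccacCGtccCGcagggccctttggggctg
Prpf8, chr11:75486838-75487137, plus strand: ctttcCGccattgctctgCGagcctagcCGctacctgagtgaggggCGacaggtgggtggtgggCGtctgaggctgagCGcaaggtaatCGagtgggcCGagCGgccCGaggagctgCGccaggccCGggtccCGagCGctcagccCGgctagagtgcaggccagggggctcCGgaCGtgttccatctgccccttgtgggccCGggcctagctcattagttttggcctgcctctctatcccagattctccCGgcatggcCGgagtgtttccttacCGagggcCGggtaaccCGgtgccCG
Cwc15, chr9:14500715-14501014, plus strand: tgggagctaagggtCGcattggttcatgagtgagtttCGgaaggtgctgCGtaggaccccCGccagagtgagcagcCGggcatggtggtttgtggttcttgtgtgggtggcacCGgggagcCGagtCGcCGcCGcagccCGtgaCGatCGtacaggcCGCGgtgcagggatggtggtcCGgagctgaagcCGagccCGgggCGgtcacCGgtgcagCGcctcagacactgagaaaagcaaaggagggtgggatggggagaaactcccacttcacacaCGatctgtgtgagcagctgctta
Cwc22, chr2:77945833-77946132, minus strand: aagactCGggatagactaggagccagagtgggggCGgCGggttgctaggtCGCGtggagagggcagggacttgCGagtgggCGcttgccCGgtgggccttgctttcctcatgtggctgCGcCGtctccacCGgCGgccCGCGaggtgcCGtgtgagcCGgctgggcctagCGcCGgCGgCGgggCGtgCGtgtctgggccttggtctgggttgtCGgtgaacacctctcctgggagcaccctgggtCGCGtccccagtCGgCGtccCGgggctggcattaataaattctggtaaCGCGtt

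The stretches held between 22 CpG (Cwc15) and 34 CpG (Snrpa1) in 300 bases. A transcript start of the member lay inside 5 of the 6, at base 143 in Snrpa, 235 in Snrpa1, 18 in Prpf8, 172 in Cwc15 and 195 in Cwc22, counted from the left end. The Snrpd3 stretch held none, and it lay on the side of the divergent gene Gucd1.

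Members had an Arid1a cKO row more often than genes at large. The share was 57.4% of members (27 of 47) against 29.5% of all autosomal protein-coding genes (6145 of 20807), a ratio of 1.95. Of the U1 members 3 of 3 had a row (100%), of the Sm core 5 of 7 (71.4%), of the PRP19 complex 4 of 6 (66.7%), of U2 8 of 13 (61.5%), of the tri-snRNP 4 of 9 (44.4%) and of the step factors 3 of 9 (33.3%), the latter near the share of all genes. The classes are small and differences among them were not tested, and their order changed with the settings: U1 had 2 of 3 with protein-coding or curated RefSeq transcripts, which leave out Snrnp70, and 1 of 3 at a −log10 q of at least 3 or with 1 start per gene. The Sm core had 1 of 7 and the tri-snRNP 2 of 9 where a row had to cover a start. The PRP19 complex had 0 of 6 and U2 had 2 of 13 where the −log10 q had to reach 5.

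**Figure D1:**
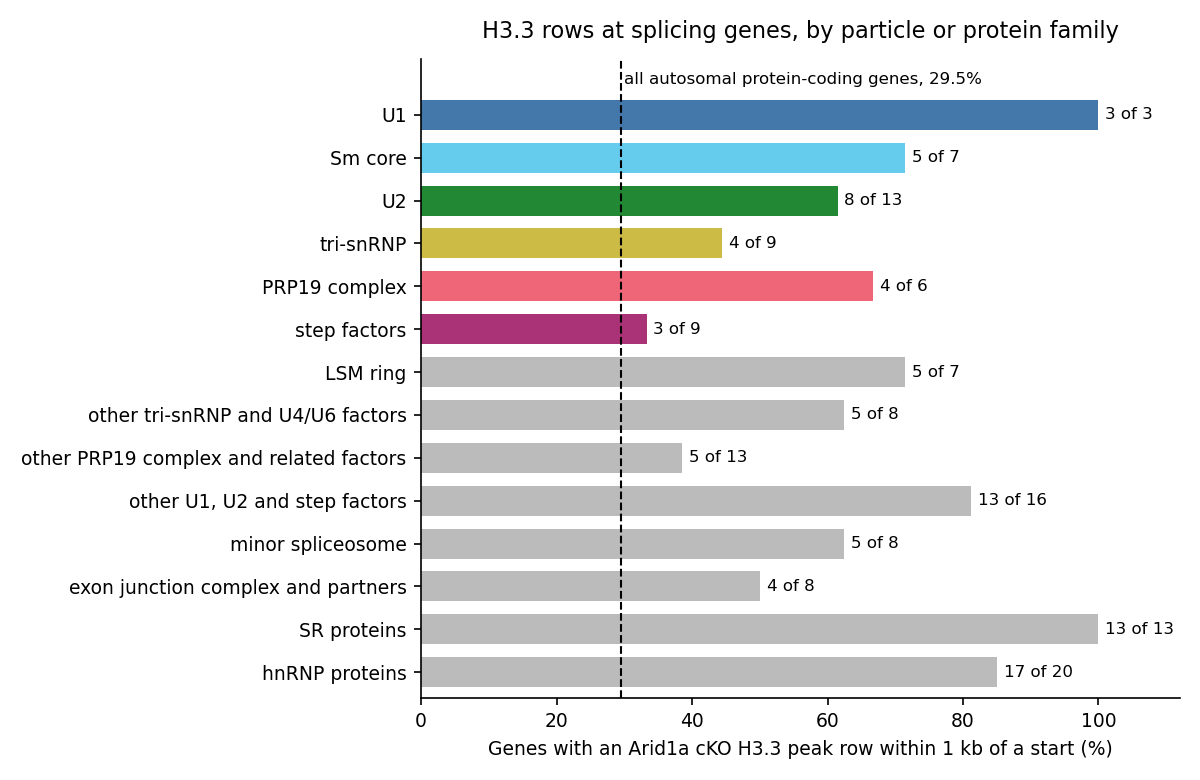
Share of genes with an Arid1a cKO H3.3 row within 1 kb of a start, in percent, for the 6 classes of core spliceosome genes (coloured bars) and 8 lists of other splicing genes (grey bars), with the number of genes beside each bar. The dashed line is the share of all autosomal protein-coding genes, 29.5%, and all 14 bars lie to its right, the step factors closest to it at 33.3%.

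In Arid1a WT, 0 of 47 members had a row, beside 0% of all autosomal protein-coding genes (0 of 20807). The whole Arid1a WT list held 228 rows, of which 4 were autosomal, whereas the Arid1a cKO list held 12183 rows, of which 11512 were autosomal. The closest Arid1a WT row to any member lay 2133 kb from Prpf3, and 41 members were on chromosomes with no Arid1a WT row at all. The absence of rows at the members in Arid1a WT was thus shared by every autosomal gene tested. A missing row means that the combined list holds no peak there, and does not show that H3.3 was absent. For autosomal genes regulated by ARID1A, the paper reports H3.3 signal above IgG at their starts in Arid1a WT, and more of it in Arid1a cKO. The lists also differed in their lowest fold, 4.85 in Arid1a WT and 2.80 in Arid1a cKO, and 8 of the 27 members with a row (29.6%) reached 4.85, against 28.2% of all genes with a row. Genotype cannot be told apart from the way each combined list was made, since each genotype is 1 list.

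Although rows were frequent at the members, they were not strong. The median of the highest fold was 4.07 over the 27 members and 4.12 over all 6145 genes with a row, and 13 of the 27 members were above the latter. The median −log10 q was 3.37 for members and 3.92 for all genes with a row. Rows at members were narrow, with a median width of 336 bp against 448 bp, and 8 of 27 were wider than the latter.

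**Figure D2:**
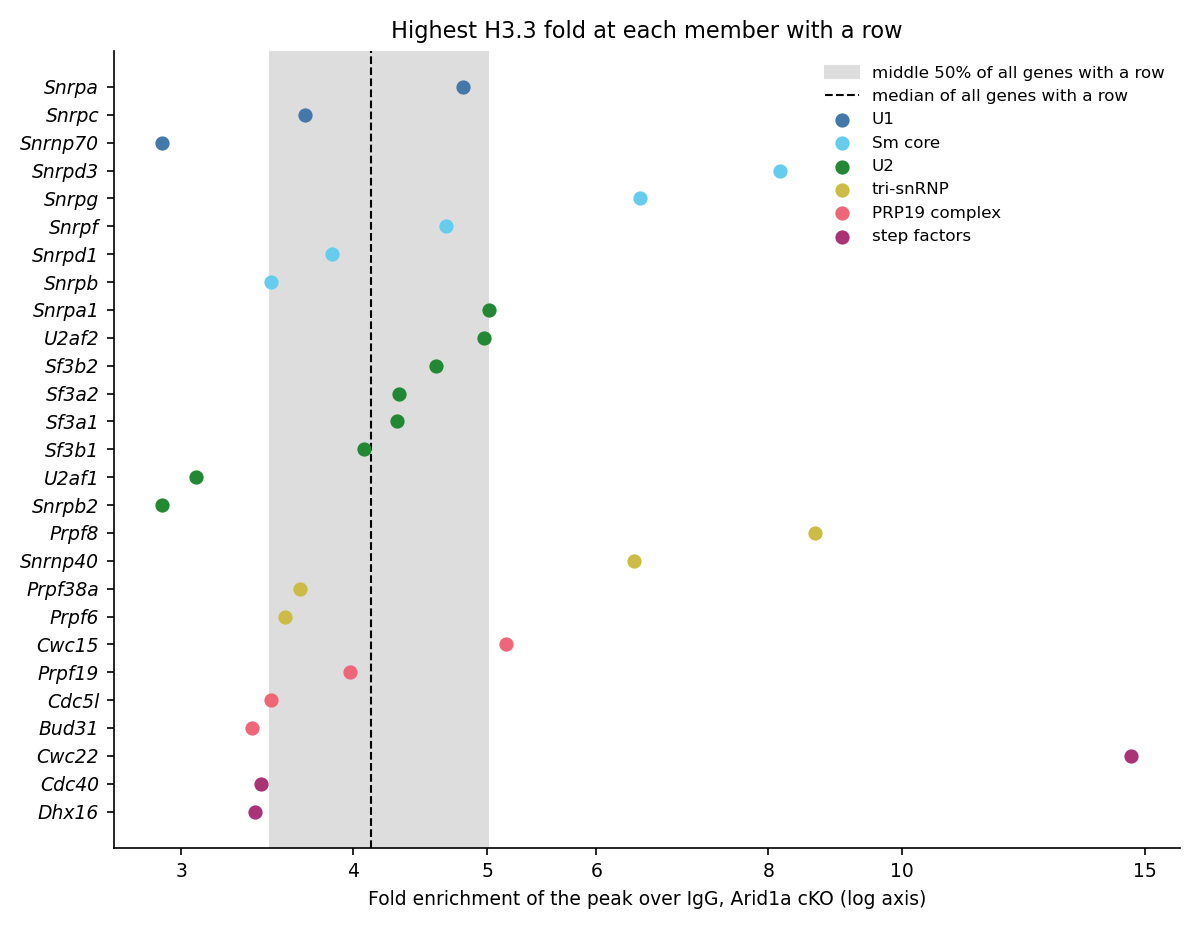
Highest fold enrichment over IgG at each of the 27 core spliceosome genes with an Arid1a cKO row, 1 point per gene coloured by class, on a log axis. The dashed line is the median of all autosomal protein-coding genes with a row, 4.12, and the grey band their middle 50%, 3.48 to 5.01, and Cwc22 at 14.7 stands far to the right of the other members.

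All 3 proteins particular to U1 had a row. Snrpa encodes a protein that binds a stem-loop of U1 snRNA, and its row (chr7:27195820-27196212) had a fold of 4.80, a −log10 q of 5.59 and a width of 393 bp, centred 8 bp downstream of a start. Snrpc, whose protein steadies the pairing of U1 with the splice site, had a row at chr17:27840101-27840317 with a fold of 3.69, a −log10 q of 2.89 and a width of 217 bp. It was centred 54 bp downstream of the most downstream of the gene's 5 starts. The most upstream one lies at chr17:27838150, and the row was lost with 1 start per gene. Snrnp70, the scaffold of the particle, had a fold of 2.91 in a single row of 254 bp that began 423 bp from the closest of its 16 starts. That start, at chr7:45381317, is the most downstream of the 16 on the minus strand, and the most upstream lies at chr7:45395742. The row of Snrnp70 was thus not at the 5′ end of the gene, and it was lost when only protein-coding transcripts were counted. The folds of U1 thus ran from 2.91 to 4.80, and only that of Snrpa was above the median of all genes with a row.

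The Sm proteins form the ring that most spliceosomal snRNAs carry, though not U6, and 5 of the 7 genes had a row. Snrpd3 had the second highest fold of the snRNP proteins, 8.16, with a −log10 q of 10.1, in a row of 454 bp at chr10:75517015-75517468. That row covered a start of Gucd1 on the opposite strand and ended 83 bp from the closest start of Snrpd3, so it is not particular to the Sm gene. Snrpg followed with a fold of 6.45, a −log10 q of 7.87 and a width of 345 bp at chr6:86371422-86371766. Its row was centred at −10 bp (upstream) from the most downstream of the gene's 4 starts. The row began downstream of the first start, at chr6:86371304. Snrpg was the one Sm gene whose row covered a start of its own. Snrpf, Snrpd1 and Snrpb had folds of 4.67, 3.86 and 3.48. Their rows lay 37, 9 and 68 bp from a start, on the downstream side. Snrpd2 and Snrpe had no row, and the closest one lay 17983 and 50586 bp away.

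The U2 class held the most rows, 8 among 13 genes, and all 8 covered a transcript start. Their folds ran from 2.91 to 5.02 and their widths from 303 to 734 bp. Snrpa1, a protein particular to U2, had the highest fold, 5.02, with a −log10 q of 6.31 and a width of 303 bp at chr7:66060545-66060847. U2af2, which reads the polypyrimidine tract ahead of the 3′ splice site, had a fold of 4.98, a −log10 q of 3.94 and a width of 320 bp at chr7:5062097-5062416. Its partner U2af1, which reads the AG at the end of the intron, had a fold of 3.07, and Snrpb2, the partner of Snrpa1, had 2.91. Snrpb2 and Snrnp70 of U1 had the same fold and the same −log10 q of 2.11. Among all genes with a row, 90.6% had a higher fold.

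Within U2 the SF3A and SF3B proteins, which clamp U2 snRNA onto the branch point, were divided. Sf3a1 and Sf3a2 had folds of 4.30 and 4.32, and Sf3a3 had no row. Sf3b1, which holds the branch helix, had a fold of 4.07, and Sf3b2 had 4.59. Sf3b3, Sf3b4, Sf3b5 and Sf3b6 had no row. Of these, Sf3b5 lay closest to one, 3011 bp from its single GENCODE start, and it was also the closest of all members without a row.

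The tri-snRNP brings U4, U6 and U5 to the assembling spliceosome. Prpf8, the U5 scaffold around the catalytic centre, had a fold of 8.64, a −log10 q of 12.9 and a width of 493 bp at chr11:75486741-75487233, centred 132 bp downstream of a start, and 0.862% of genes with a row had a higher fold. Snrnp40, a WD40 protein of U5, had 6.39, a −log10 q of 9.40 and a width of 519 bp at chr4:130360006-130360524. The other two rows of the class were weaker and lay off the start. Prpf38a, which takes part in activation, had a fold of 3.66 in a row 156 bp from a start, and Prpf6, which bridges U5 and the U4/U6 pair, had 3.57 in a row 923 bp from a start, the member just inside the window. The helicase Snrnp200 that unwinds U4 from U6, the GTPase Eftud2 and the U4/U6 proteins Prpf3, Prpf4 and Prpf31 had no row, with the closest one between 8962 bp (Prpf31) and 48256 bp (Prpf4) away.

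The PRP19 complex stabilises the activated spliceosome, and 4 of the 6 genes placed in its class had a row, all covering a start. Cwc15 had a fold of 5.16, a −log10 q of 4.78 and a width of 451 bp at chr9:14500639-14501089. Prpf19, the ubiquitin ligase that names the complex, had 3.97, a −log10 q of 2.70 and a width of 300 bp at chr19:10895242-10895541. Cdc5l and Bud31 had 3.49 and 3.38. Only Cwc15 was above the median fold of all genes with a row. Crnkl1 and the helicase Aqr had no row within 576680 and 270448 bp.

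Among the step factors, Cwc22, which carries the exon junction core helicase to the spliceosome, had the highest fold of any member. Its row at chr2:77945708-77946257 had a fold of 14.7, a −log10 q of 26.8 and a width of 550 bp, was centred at −44.5 bp from a start (upstream), and was exceeded in fold by 1 of the 6145 genes with a row. Of the stretches of 50 bases in this row, 94.2% occurred once in the assembled genome, and the rest up to 8 times. The segment that holds Cwc22 is known to differ in copy number between mouse strains, and the peak list holds no measure of copy number. Cdc40, a factor of the second step, had a fold of 3.43, a −log10 q of 2.47 and a width of 835 bp at chr10:40883572-40884406, the widest row of any member, which lay 261 bp from its start and covered a start of Wasf1. Dhx16, the helicase that acts before the first step, had 3.39. The helicases Dhx38, Dhx8 and Dhx15, which act between the steps, at release of the mRNA and at disassembly, had no row, nor had Slu7, Cwc25 and Cwc27. The closest row to these 6 genes lay between 6502 bp (Cwc25) and 478849 bp (Dhx15) away.

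The rows sat at the starts as they did for other genes. Over the 27 members, 19 rows (70.4%) covered a start, against 76.8% of all genes with a row. The row's centre lay within 250 bp of a start in 22 members (81.5%), against 81.1%, and downstream of it in 16 (59.3%), against 61.6%. The median position was 11.5 bp downstream for members and 39 bp downstream for all genes with a row. Members were in 27 separate regions, so no 2 of them shared a peak, and 26 of the 27 regions held 2 rows.

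**Figure D3:**
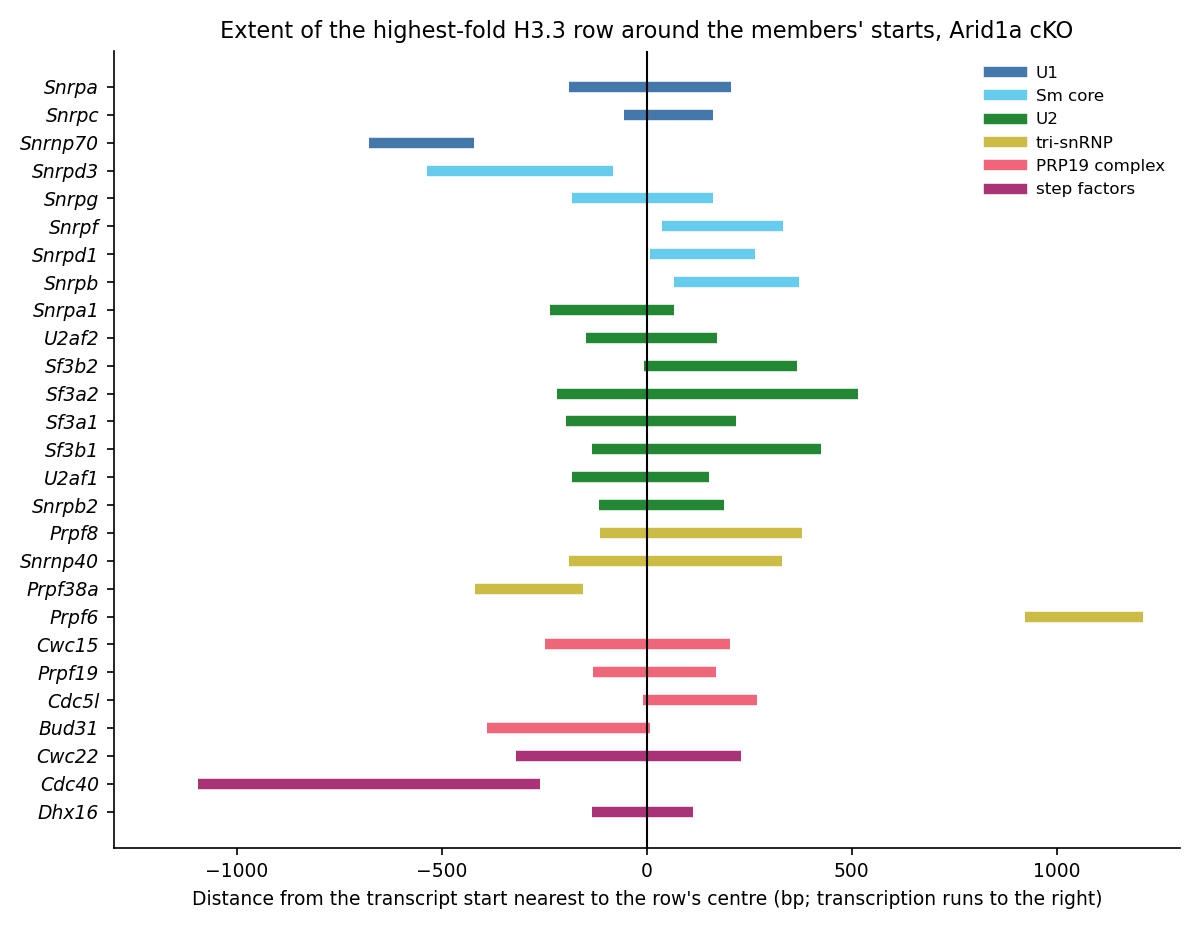
Extent of the highest-fold Arid1a cKO row at each of the 27 core spliceosome genes with one, in bp from the transcript start nearest to the row's centre, with transcription running to the right and 1 bar per gene coloured by class. Most bars cross the start, and those of Snrnp70, Cdc40 and Prpf6 lie farthest from it.

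Several rows were also close to a neighbouring gene. In 10 of 27 members (37%) the row was also within 1 kb of a start of another protein-coding gene, against 26.8% of all genes with a row. The pairs were Snrpa with BC024978, Snrpd3 with Gucd1, Sf3a1 with Ccdc157, Sf3a2 with Plekhj1, Snrnp40 with Zcchc17, Prpf6 with Zfp512b, Prpf38a with Orc1, Bud31 with Pdap1, Cwc15 with Kdm4d and Cdc40 with Wasf1. In every pair the genes were on opposite strands. The row lay nearer to the neighbour's start than to the member's in Snrpd3, Prpf6, Prpf38a and Cdc40. A count without such rows, added once the values were known, gave 23 of 47 members (48.9%) against 27.7% of all genes.

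Genes with more annotated starts have more windows in which a row can fall, and members had a median of 5 starts against 3 for all genes. The share of all genes with a row rose from 12.5% at 1 start to 52.3% at 10 or more. Weighted to the members' numbers of starts, the share of all genes was 35.2%, which is 16.6 of 47 genes, where 27 members had a row. Members with and without a row had the same median of 5 starts.

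Promoter CpG also varied with the rows. RefSeq promoter windows (GRCm38.p6, 250 bases before to 50 after a start) matched 38 members and 15670 of the 20807 genes, which is under 80% of the latter, so values for all genes describe the matched genes only. Dhx38, Eftud2, Sf3b4, Sf3b5, Slu7, Snrnp40, Snrpb, Snrpd1 and U2af2 had no window. The median number of CpG was 23 for members and 15 for all genes, at a similar GC content of 56.8% and 57.3%. Matched genes with 5 CpG or fewer had a row in 3.73% of cases, and those with 24 or more in 59.5%. Over all matched genes the share with a row was 31.2%. Weighted to the members' CpG counts, the share of matched genes was 48.1%, or 18.3 of 38, and weighted to CpG and starts together it was 49.2%, or 18.7 of 38. The matched members had 23 rows among 38 (60.5%). The gap in share between members and matched genes was thus smaller among genes of like CpG count than over all matched genes.

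**Figure D4:**
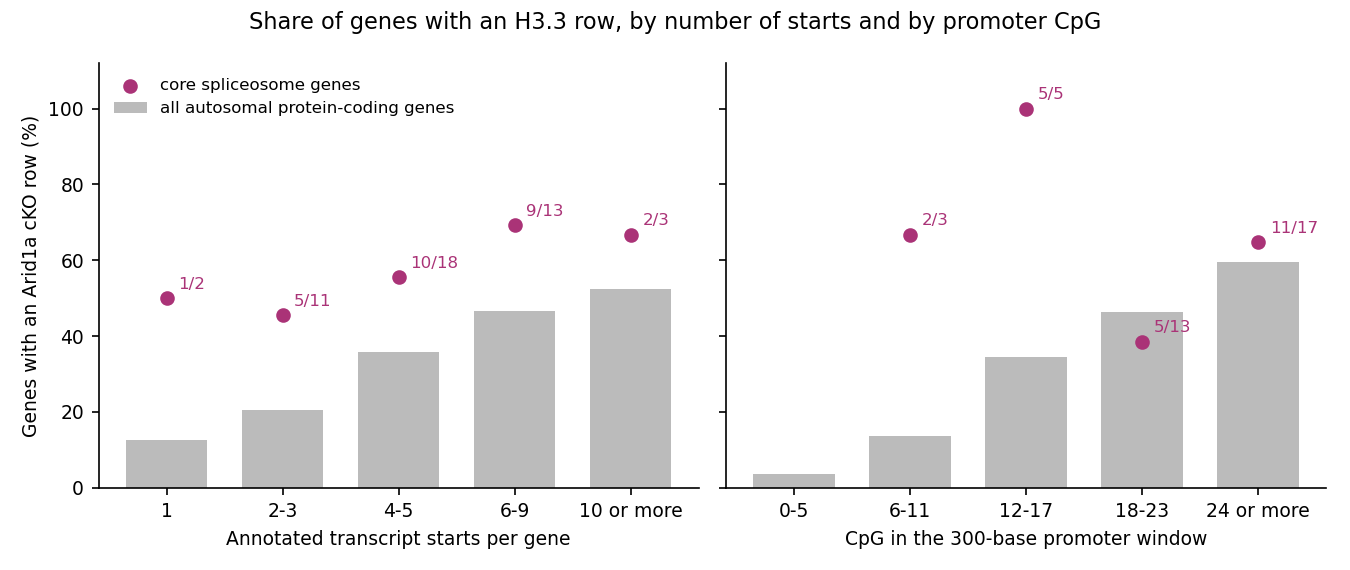
Share of genes with an Arid1a cKO row, in percent, by number of annotated starts (left) and by number of CpG in the 300-base promoter window (right, matched genes only). Grey bars are all autosomal protein-coding genes and points are core spliceosome genes, with their counts. The bars rise to 52.3% and 59.5%, and the point for members with 18 to 23 CpG, of which 5 of 13 had a row, lies below its bar of 46.3%.

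CpG count did not divide the members themselves. The median was 23 CpG in the promoter window both for the 23 matched members with a row and for the 15 without. Snrpa1, which had a row, had the fewest CpG in that window of any matched member, 7. The row of Snrpa1 itself held 34 CpG, so window and row can differ. Inside the rows the median density was 103 CpG per kb for members and 102 for all genes with a row, and GC content was 66.5% and 69.3%. In 23 of the 27 members' rows every stretch of 50 bases occurred once in the genome.

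Promoter windows were searched on both strands for 9 short motifs. The SP1 motif GGGCGG was in 14 of 23 members with a row (60.9%), in 6 of 15 without (40%), and in 48.6% of all matched promoters and 71.9% of those with a row. The ETS motif CCGGAAGT was in 3 of 23 (13%) and 5 of 15, against 5.63% of all promoters and 10.8% of those with a row. The CRE motif TGACGTCA was in 3 of 23 (Snrpa, Snrpg and Cdc5l) and 0 of 15, against 2.48% and 3.88%. The NFY motif CCAAT was in 11 of 23 and 5 of 15, against 38.4% and 39.7%, and the MYB motif AACTGNC in 4 of 23 and 1 of 15, against 11.8% and 10.3%. The TATA motif TATAAA was in 2 of 23 (8.7%) and 2 of 15, against 12.9% of all promoters and 5.15% of those with a row, and YY1 (ATGGCGGC), NRF1 (GCATGCGC) and BANP (CTCGCGAG) were each in 3 or fewer of the 38 members. A match is a run of letters and not a bound site, and the small numbers leave no order among the motifs.

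Other splicing genes, listed with earlier results of these data known, had rows more often still, 67 of 93 (72%), against 29.5% of all autosomal protein-coding genes. They had a median of 6 annotated starts, and the hnRNP genes 10, against 5 for members and 3 for all genes. The shares of these lists were not weighted for starts. All 13 SR proteins and 17 of 20 hnRNP proteins (85%), which bind exons and introns and steer the choice of splice sites, had a row. Their rows were also wide, with medians of 734 and 788 bp against 336 bp for the core genes, at median folds of 4.36 and 4.37 against 4.07. Other factors of U1, U2 and the steps had rows at 13 of 16 genes (81.2%) and the LSM ring, which binds U6, at 5 of 7 (71.4%). The tri-snRNP factors outside the core list (5 of 8), the minor spliceosome (5 of 8, 62.5%) and the exon junction complex with its partners (4 of 8, 50%) lay lower. The list of other PRP19 complex and related factors was lowest with 5 of 13 (38.5%). Among the highest folds of these lists were 9.55 for Rnpc3, of the minor spliceosome, 7.43 for Lsm4, 6.44 for Bcas2 of the PRP19 complex, 6.43 for Hnrnpr, 5.59 for Casc3 of the exon junction complex, 5.41 for Srsf9 and 5.29 for Snu13 of the tri-snRNP. In the exon junction list the rows were at Casc3, Rnps1, Acin1 and Srrm1, and Eif4a3, Magoh, Magohb and Rbm8a had none. The differences between these lists and the core genes were not tested.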

How the data were processed

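Pachytene spermatocytes were profiled for H3.3 by CUT&RUN. The authors trimmed reads with Trim Galore, aligned them to mm10 with Bowtie2, handled alignments with SAMtools, removed PCR duplicates with Picard, and called broad peaks per library with MACS2 on the remaining paired fragments, against an IgG control from pachytene-enriched testes of younger mice made for another study. Peaks were then intersected across replicates, which gave the 1 deposited list per genotype. No filter on mapping quality is described. The values used are the deposited fold enrichment (a linear ratio to IgG) and the −log10 of the q-value that the authors' peak caller wrote. Counts behind them, and so the depth, are unknown. The p-value column was not used.

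From these files, each row was placed against all transcript starts of GENCODE M21, and a gene was counted where any part of a row lay within 1 kb of any start. The row with the highest fold stood for the gene. Transcript starts, promoter windows and the assembled genome were all of the same build. CpG, GC content, motifs and stretches of 50 bases were counted by scripts in Python 3.11.15 with numpy 2.4.6, pandas 2.3.3 and numba 0.67.0. The counting was tested on simulated data. No test was run, because each genotype is 1 combined list, and counts are given beside those of all autosomal protein-coding genes. All members were named, with full values for the 2 of highest fold in each class. The members and lists were chosen with earlier results of these data known. The alternatives were other windows (500 bp and 2 kb), row centres, rows covering a start, other transcript sets, thresholds on −log10 q of 3 and 5, and rows that overlap another row. The gene of highest fold in 1 of the lists of other splicing genes is not reported here.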

Additional observations from a re-analysis of the deposited data

How the results depend on the processing

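The share of members with an Arid1a cKO row was between 1.77 and 2.04 times that of all autosomal protein-coding genes over 10 alternatives. The number of members itself stayed between 19 and 27 in all but 1 of them. At a −log10 q of at least 5 it was 8 members (17%), and the share of all genes was 9.56%. At a −log10 q of at least 3, 19 members (40.4%) and 20.8% of genes had a row, and the members' median fold was 4.67. The 8 members lost there were Cdc40, Prpf19, Prpf38a, Snrnp70, Snrpb2, Snrpc, Snrpd1 and U2af1. With a row required to cover a start, 19 members remained, without Cdc40, Prpf38a, Prpf6, Snrnp70, Snrpb, Snrpd1, Snrpd3 and Snrpf. Curated RefSeq transcripts gave 26 members, with Sf3b5 gained and Prpf6 and Snrnp70 lost. With 1 start per gene 24 members remained, without Snrnp70, Snrpa1 and Snrpc. The count in Arid1a WT was 0 under each alternative. The classes rest on few genes. Where a row had to cover a start, the Sm core had 1 and the tri-snRNP 2, and U1 had 1 of 3 members at a −log10 q of at least 3 or with 1 start per gene. At a −log10 q of at least 5, U1 had 1, the Sm core 2, U2 2, the tri-snRNP 2, the PRP19 complex 0 and the step factors 1. No paired analysis was possible because the libraries of a genotype were merged into 1 list, and libraries could not be left out in turn.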
